A study of Mus musculus with 2 samples.

Results

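Semaphorins and their plexin receptors, Eph receptor tyrosine kinases and their ephrin ligands, and the Slit ligands with their Robo receptors were followed in the mouse embryonic heart. They were chosen by symbol alone, as the protein-coding genes named Sema3 to Sema7, Plxna to Plxnd, Epha, Ephb, Efna, Efnb, Slit1 to Slit3 and Robo1 to Robo3, which gave 57 of the 43346 mouse genes measured. Robo4 falls outside that rule and is treated with the related genes. Hearts of B6NCrl embryos, healthy and of mixed sex, were taken at embryonic day 11.5 and total RNA was sequenced in 2 libraries, each from a separately recorded pool, under the same donor identifier. The pool of replicate 1 held 109 embryos and the labels give no number for that of replicate 2. No genotype, treatment or second time point is involved, so there is 1 group and no contrast between conditions. In RNA of a whole organ, fewer cells of a type and less RNA per cell cannot be told apart.

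These families are known for steering axons, and members of each also pattern vessels and the heart. Secreted class 3 semaphorins bind neuropilins that signal through A-type plexins or Plxnd1, while most membrane-bound semaphorins bind plexins directly. Ephrins are held on the cell surface and signal into both the cell that carries them and the cell that carries the Eph receptor. Slits are large secreted proteins whose leucine-rich repeats bind Robo receptors.

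Levels are given in TPM, a transcript abundance corrected for length and scaled to the same total in each library, as replicate 1 and replicate 2 and then as mean ± SD (n = 2). An exact test that flips the sign of each library's log2 ratio between genes cannot give a p under 0.5 with 2 libraries. Levels of different genes are therefore described without a test. A gene was called detected at 1 TPM or more in both libraries. The libraries held 37617442 and 27642765 expected counts, of which the guidance genes had 58131 and 46214, or 0.169% and 0.183% of the counts in mouse genes. The 8 heart muscle markers were all detected, with summed levels of 24810 and 26571 TPM. Markers of endothelium (6 of 6), cushion mesenchyme (5 of 5), epicardium (4 of 4) and red cells (4 of 4) were detected as well. Other lists were detected in part: macrophages in 3 of 4 and neural crest and glia in 1 of 4. The pharyngeal arch and second heart field list had 1 of 4, with sums of 12.3 and 8.05 TPM. Of the neuronal markers 4 of 6 were detected, the highest being Tubb3 at 10.1 ± 0.064 TPM. The 4 liver markers summed to 141 TPM in replicate 1 and 24.2 in replicate 2.

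Of the 57 guidance genes, each of which had a count, 41 were detected (71.9%). That share was close to the 71.5% of the 16941 protein-coding genes with a count, and 56.4% of all 21474 protein-coding genes were detected. Their median level was 5.08 TPM in replicate 1 and 4.93 in replicate 2, below the 7.57 and 7.73 TPM of the protein-coding genes with a count. A total of 17 stood at 10 TPM or more in both libraries. Every family had at least 1 such gene, and every family other than the ephrins also had members below detection. The plot of levels by family shows this spread, from Plxnb2 down to Epha10.

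**Figure D1:**
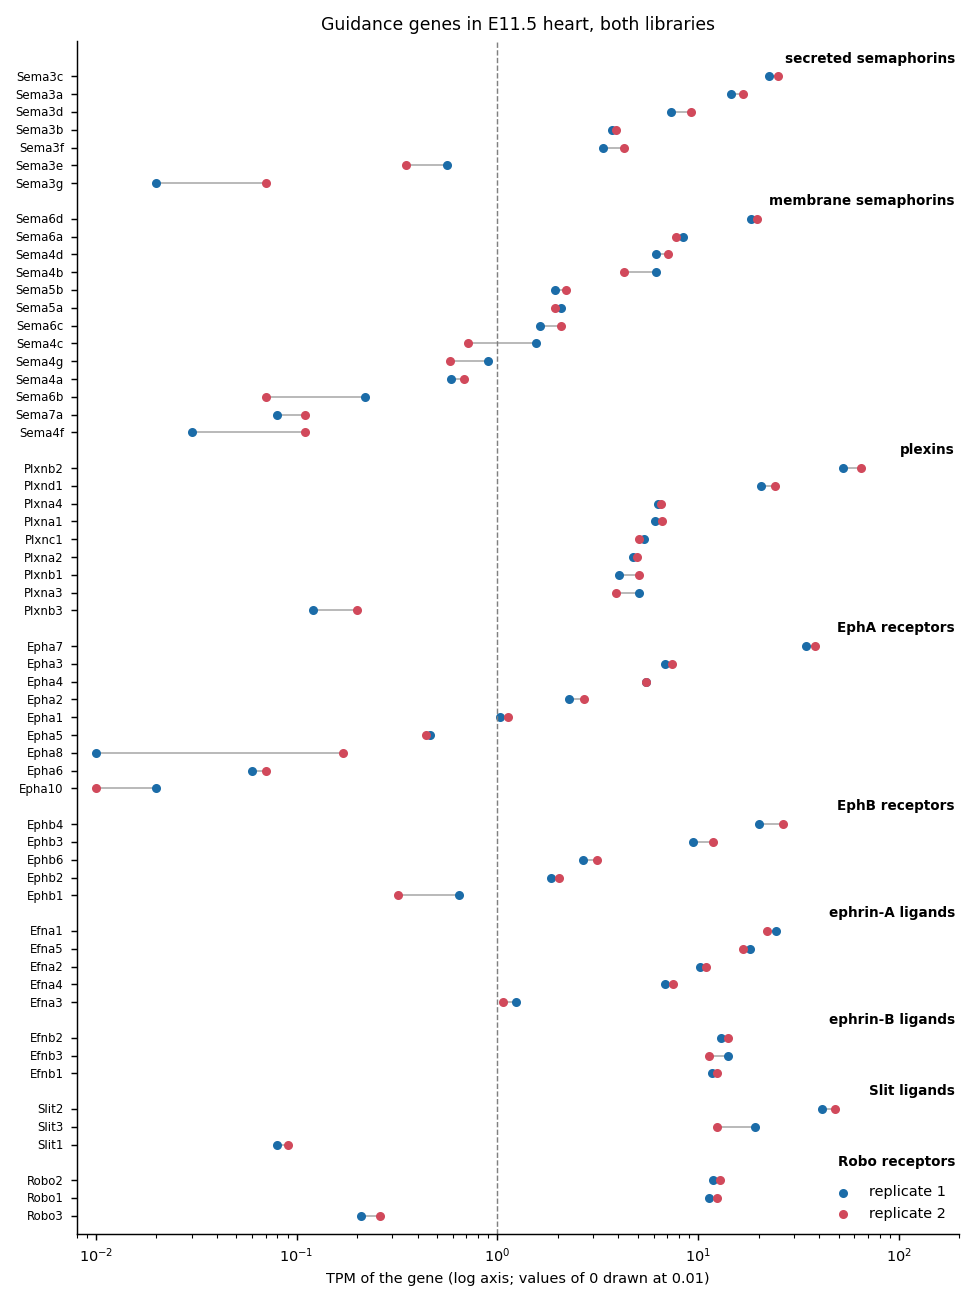
TPM of each guidance gene (log axis) in replicate 1 (blue) and replicate 2 (red), grouped by family and ordered by the mean of both libraries. The dashed line marks 1 TPM, and values of 0 are drawn at 0.01. Plxnb2 is highest at 52.9 and 64.56 TPM, and all 8 ephrin genes lie above 1 TPM.

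The order at the top of the list depended on which transcripts of a gene were counted. By gene TPM, the sum over all annotated transcripts, Plxnb2, a receptor for class 4 semaphorins, led with 52.9 and 64.56 TPM (58.7 ± 8.24). Slit2 followed with 41.56 and 47.85 (44.7 ± 4.45), then Epha7 with 34.47 and 38.37 (36.4 ± 2.76). The libraries of these 3 genes did not overlap with each other or with those of the next gene, Sema3c. For all 3, much of the TPM was assigned to transcripts that are not annotated as protein-coding. When the TPM of protein-coding transcripts alone was summed, Plxnb2 had 18.91 and 28.0, Slit2 17.99 and 21.31, and Epha7 19.77 and 25.26.

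On that scale the libraries of these genes overlapped with those of Ephb4 (20.18 and 26.36 TPM), Efna1 (24.28 and 22.11) and Plxnd1 (20.63 and 24.02). Slit2 and Efna1 were the exception, with no overlap. The Slit2 sum leaves out a transcript without a type in the annotation used, at 1.42 and 4.49 TPM. That exception holds only with this transcript left out. Efna1 and Plxnd1 kept all of their TPM, since each had 100% in 1 protein-coding transcript. The split between transcripts is an estimate of the authors' model wherever transcripts share exons. It weighs most on short transcripts, because TPM divides by length.

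**Figure D2:**
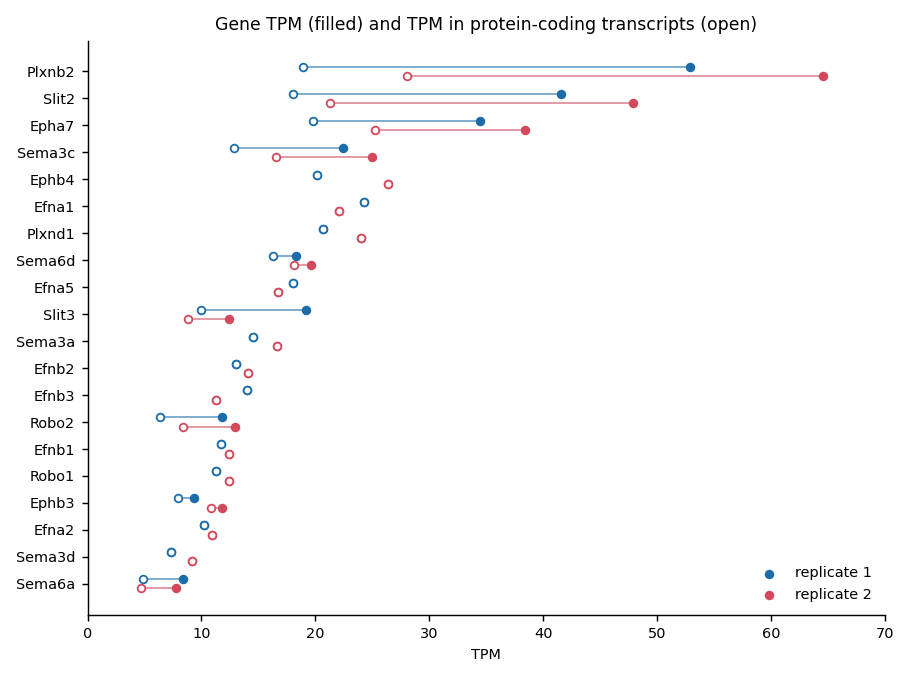
TPM of the 20 highest guidance genes, summed over all transcripts of the gene (filled) and over protein-coding transcripts alone (open), for replicate 1 (blue) and replicate 2 (red). The gap is widest for Plxnb2 (64.56 against 28.0 TPM in replicate 2) and absent for Efna1 and Plxnd1, where the symbols coincide.

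The transcript that took most of Plxnb2 was Plxnb2-205, a processed transcript of 3 exons and 841 bases in the files. It held 54.4% and 53.4% of the gene's TPM on 610 and 515 expected counts, out of 4086 and 4083 for the gene. It lies at the gene's 3' end (chr15:89155549-89156572, minus strand, mm10), and 0% of its bases fall outside the exons of the coding transcripts. Reads there therefore cannot be assigned to it by position alone. Non-coding transcripts held 64.3% and 56.6% of Plxnb2's TPM and 17.03% and 13.3% of its counts.

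In Slit2, Epha7, Robo2 and Slit3 the main non-coding transcript runs from a coding exon into an intron. Slit2-207, of 6 exons, held 38.2% and 33.3% of Slit2, with 25.7% of its bases outside the coding transcripts' exons. Robo2-209, of 2 exons, held 37.5% and 32.3% of Robo2, with 75.1% of its bases outside, and was the leading transcript of that gene. Epha7-208 held 26.8% and 25.1% of Epha7 with 56.6% outside, and Slit3-204, of 459 bases, held 45.4% and 22.8% of Slit3 with 65.1% outside. Of these 4, Slit3-204 had the fewest counts, 89.5 and 20.5, and the largest difference between the libraries.

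The sequences at these 4 boundaries show where each transcript runs on from a coding exon. Each runs 5′ to 3′ on the strand of the gene (GENCODE M21 transcripts, GRCm38), with 45 bases of coding exon in lower case and the 45 bases that continue into the intron in capitals. Each capital run opens with GT, the bases with which most introns begin. The windows were chosen at annotated ends of coding exons, so the GT follows from that choice and does not mark these transcripts.
Slit2-207, chr5:48182273-48182362, plus strand: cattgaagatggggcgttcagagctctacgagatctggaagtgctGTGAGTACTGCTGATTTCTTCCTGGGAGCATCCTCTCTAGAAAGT
Robo2-209, chr16:74352506-74352595, minus strand: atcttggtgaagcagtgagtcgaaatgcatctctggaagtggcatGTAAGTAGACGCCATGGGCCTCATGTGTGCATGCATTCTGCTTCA
Epha7-208, chr4:28871952-28872041, plus strand: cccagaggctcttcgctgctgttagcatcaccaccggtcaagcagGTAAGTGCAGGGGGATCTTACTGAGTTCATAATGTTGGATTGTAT
Slit3-204, chr11:35234864-35234953, plus strand: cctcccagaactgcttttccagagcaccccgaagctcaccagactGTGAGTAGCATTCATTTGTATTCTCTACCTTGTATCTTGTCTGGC

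Over the 41 detected guidance genes, 11 had more than 25% of their TPM in transcripts not annotated as coding, including any that release M21 lacks, on the mean of the libraries (26.8%, against 19.3% of detected protein-coding genes). Their median was 8.45%, against 1.71%. The figures for guidance genes average the percents of the libraries, while those for protein-coding genes come from mean TPM. The measures are thus not identical, and genes near 25% can fall on either side. Sema3b (24.9%), Ephb2 (24.5%) and Sema4b (24.4%) lay just under it. The 11 were Plxnb2, Slit2, Sema6c, Plxna3, Sema6a, Robo2, Sema5b, Slit3, Epha7, Sema3c and Sema3f. In 18 of the 41 the share was below 1% in both libraries, among them all 3 ephrin-B genes, Efna1, Efna2, Efna4, Efna5, Robo1, Plxnd1 and Plxna4. The share was higher in replicate 1 for 17 genes and in replicate 2 for 6. That split was not counted over all detected protein-coding genes, so it shows no trait of the guidance genes. The same transcript led in both libraries for 40 of 41, Sema6c being the exception, and in 34 it held over 50% in both. For 9 of the 41, Robo1, Plxna4, Efna2 and Efna4 among them, only 1 transcript was listed. Their leading transcript and their share without coding annotation were thus fixed in advance. On the mean of the libraries, Plxnb2-205 and Robo2-209 were the leading transcripts without coding annotation among the detected genes, and in replicate 1 alone Sema6c-212 was another.

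**Figure D3:**
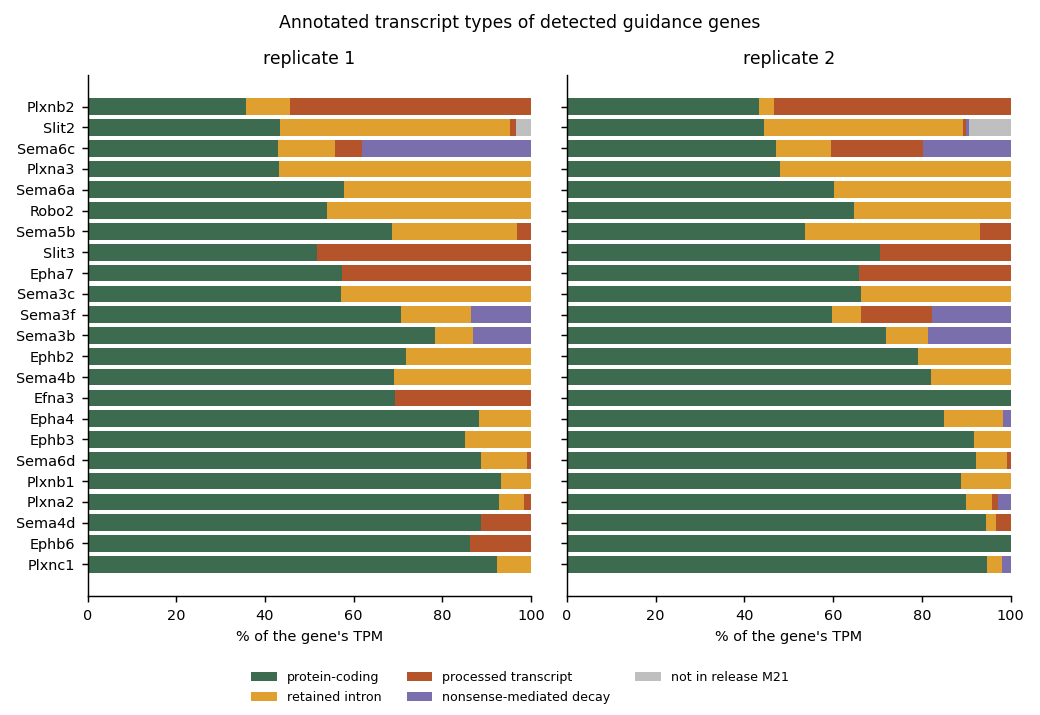
Percent of each gene's TPM by annotated transcript type in replicate 1 (left) and replicate 2 (right), for detected guidance genes with over 5% outside protein-coding transcripts on the mean. Plxnb2 at the top has 35.7% and 43.4% in protein-coding transcripts, and its main other share is a processed transcript.

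Among the secreted semaphorins, 5 of 7 were detected. Sema3c, a cue for neural crest cells entering the outflow tract, had 22.44 and 24.99 TPM (23.7 ± 1.80). Sema3a, an axon repellent that patterns cardiac sympathetic innervation, had 14.52 and 16.62 (15.6 ± 1.48), and Sema3d 7.35 and 9.19 (8.27 ± 1.30). By gene TPM Sema3c stood 1.52-fold above Sema3a (log2 ratio 0.61 ± 0.028) with no overlap of the libraries. In coding transcripts the order turned, with Sema3c at 12.84 and 16.55 TPM against 14.52 and 16.62, and the libraries overlapped (log2 ratio -0.092 ± 0.121). Sema3c exceeded Sema3d 2.88-fold, or 1.77-fold in coding transcripts, without overlap. Retained-intron transcripts held 42.8% and 33.7% of Sema3c.

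Sema3b (3.82 ± 0.106 TPM) and Sema3f (3.81 ± 0.636), a ligand of Nrp2, were not apart by gene TPM (log2 ratio -0.012 ± 0.202). Sema3e, which binds Plxnd1 without a neuropilin, was below detection at 0.56 and 0.35 TPM on 102 and 42 counts. Its receptor gene stood far above it, at 20.63 and 24.02 TPM. Sema3g, known from endothelium, was the lowest with 3 and 6 counts.

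Of the membrane semaphorins 7 of 13 were detected, and 1 reached 10 TPM in both libraries. That gene was Sema6d, a plexin-A ligand studied in cardiac morphogenesis, with 18.29 and 19.6 TPM (18.9 ± 0.926). Sema6a had 8.42 and 7.75 (8.09 ± 0.474), 2.34-fold below Sema6d, or 3.59-fold in coding transcripts, and the pair did not overlap on either scale. Sema4d, the ligand of Plxnb1, had 6.15 and 7.08 (6.62 ± 0.658). Sema4b had 6.18 and 4.25, and Sema5b, Sema5a and Sema6c lay between 1.62 and 2.19 TPM in either library. Sema6c fell to 0.70 and 0.98 TPM in coding transcripts and so below detection. Sema4c crossed the threshold, at 1.56 TPM in replicate 1 and 0.71 in replicate 2, and Sema4g, Sema4a, Sema6b, Sema7a and Sema4f stayed below it in both. Sema4f was the lowest with 3 and 9 counts.

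The plexins were detected in 8 of 9 cases. Plxnd1, the endothelial receptor of outflow and vessel patterning, had 20.63 and 24.02 TPM (22.3 ± 2.40) and stood 3.48-fold above Plxna4. The 4 A-type plexins, the signalling partners of neuropilins, lay close together, from 3.89 to 6.60 TPM over both libraries: Plxna4 6.41 ± 0.177, Plxna1 6.35 ± 0.361, Plxna2 4.82 ± 0.156 and Plxna3 4.49 ± 0.841. Plxna1 exceeded Plxna2 1.32-fold without overlap, whereas Plxna1 and Plxna4 overlapped. Plxna3 had 56.8% and 51.9% of its TPM in retained-intron transcripts, so its coding level was 2.19 and 1.87. Plxnc1 had 5.34 and 5.08 TPM, and its ligand gene Sema7a 0.08 and 0.11. Plxnb2 stood 12.9-fold above Plxnb1, the other B-type receptor detected, and 5.58-fold in coding transcripts. Plxnb3 was the lowest at 0.12 and 0.20 TPM.

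Of the EphA receptors 5 of 9 were detected. After Epha7 came Epha3, a receptor active in endocardial cushion cells, with 6.81 and 7.43 TPM (7.12 ± 0.438), and Epha4 with 5.48 and 5.47. Epha7 exceeded Epha3 5.11-fold, or 3.14-fold in coding transcripts. Epha2 (2.27 and 2.69 TPM) stood 2.22-fold below Epha4, and Epha1 was at 1.03 and 1.13. The members below detection were Epha5 (0.46 and 0.44 TPM), Epha6 (6 and 2 counts), Epha8 and Epha10, a receptor without kinase activity. Epha8 had 0 counts in replicate 1, which allows up to 0.0228 TPM at the limit of 3 counts, and 16 counts in replicate 2. With replicate 1 set at that limit, Epha8 scaled to depth was 7.31-fold higher in replicate 2. The 16 counts were taken as exact there, so this value is no lower bound. Epha10 had 2 counts and 0 counts. The limit of 3 counts covers counting error in replicate 1 alone.

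Of the EphB receptors 4 of 5 were detected. Ephb4, the receptor that marks veins, had 20.17 and 26.36 TPM (23.3 ± 4.38). Ephb3 had 9.38 and 11.81 (10.6 ± 1.72), Ephb6, another receptor without kinase activity, 2.68 and 3.12 (2.90 ± 0.311), and Ephb2 1.85 and 2.02. Ephb4 exceeded Ephb3 2.19-fold and Ephb2 11.9-fold, in both cases without overlap. Ephb1 was below detection at 0.64 and 0.32 TPM.

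The ephrins were the most evenly detected ligands, 8 of 8 being at 1 TPM or more in both libraries. Efna1 had 24.28 and 22.11 TPM (23.2 ± 1.53), Efna5 18.01 and 16.74 (17.4 ± 0.898), Efna2 10.21 and 10.92 (10.6 ± 0.502), Efna4 6.87 and 7.51 (7.19 ± 0.453) and Efna3 1.24 and 1.06. These ephrins are held by a lipid anchor and bind mainly EphA receptors. Efna1 exceeded Efna5 1.33-fold by TPM, while the shorter Efna1 had fewer counts (957 and 615 against 2013 and 1309). The transmembrane ephrin-B genes lay together: Efnb2, the arterial partner of Ephb4, had 13.06 and 14.06 TPM (13.6 ± 0.707), Efnb3 14.0 and 11.27 (12.6 ± 1.93) and Efnb1 11.75 and 12.43 (12.1 ± 0.481). Efnb2 and Efnb3 overlapped, and Efnb2 exceeded Efnb1 1.12-fold without overlap. In coding transcripts Efna3 fell to 0.86 TPM in replicate 1.

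Slit2 and Slit3, which guide cells through Robo1 and Robo2, were detected and Slit1, known mainly from the nervous system, was not. Slit3 had 19.18 and 12.42 TPM (15.8 ± 4.78), a difference that shrank to 9.94 and 8.78 in coding transcripts. Slit2 exceeded Slit3 2.89-fold, or 2.10-fold in coding transcripts. Slit1 had 12 and 9 counts, and Slit3 stood 182-fold above it (110-fold in coding transcripts). At so few counts the size of that ratio is not firm, and its log2 value of 7.51 was 5.99 with posterior mean TPM, 6.39 with 0.1 TPM added to each level and 3.92 with 1 added. Robo1 (11.28 and 12.4 TPM, 11.8 ± 0.792) and Robo2 (11.82 and 12.91, 12.4 ± 0.771) overlapped by gene TPM. In coding transcripts Robo1 exceeded Robo2 (6.38 and 8.34 TPM) 1.62-fold, without overlap. Robo3, a receptor of commissural axons, had 0.21 and 0.26 TPM.

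Ligands and receptors were also summed by family. Secreted semaphorins summed to 52.0 and 59.4 TPM, membrane semaphorins to 48.0 and 47.1, and the 9 plexins to 105.2 and 120.9. Ephrin-A ligands summed to 60.6 and 58.3 TPM against 50.6 and 55.8 for EphA receptors, and ephrin-B ligands to 38.8 and 37.8 against 34.7 and 43.6 for EphB receptors. Slit and Robo came to 60.8 and 60.4 TPM of Slit against 23.3 and 25.6 TPM of Robo. In coding transcripts Slit and Robo came to 28.0 and 30.2 against 17.7 and 20.8 TPM, and ephrin-A and EphA to 60.2 and 58.3 against 34.9 and 41.5. On that scale secreted semaphorins summed to 40.47 and 47.95 TPM and membrane semaphorins to 37.9 and 38.68. The plexins fell to 67.2 and 80.87 TPM. Ephrin-B ligands came to 38.81 and 37.76 TPM against 32.45 and 42.21 for EphB receptors. Such sums describe RNA and leave out affinities, and 1 ligand gene can serve receptors of another family.

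Of the 20 pairs compared, 17 were apart by gene TPM, meaning that both libraries of 1 gene lay above both of the other. In coding transcripts 18 were apart, and 16 were apart on both scales in the same direction. The share of pairs apart among other genes was not counted, so these numbers show nothing particular to guidance genes. The mean ratio changed sign in 2 pairs, Sema3c with Sema3a and Robo1 with Robo2, neither of which was apart on both scales. The plot of pairs shows both scales.

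**Figure D4:**
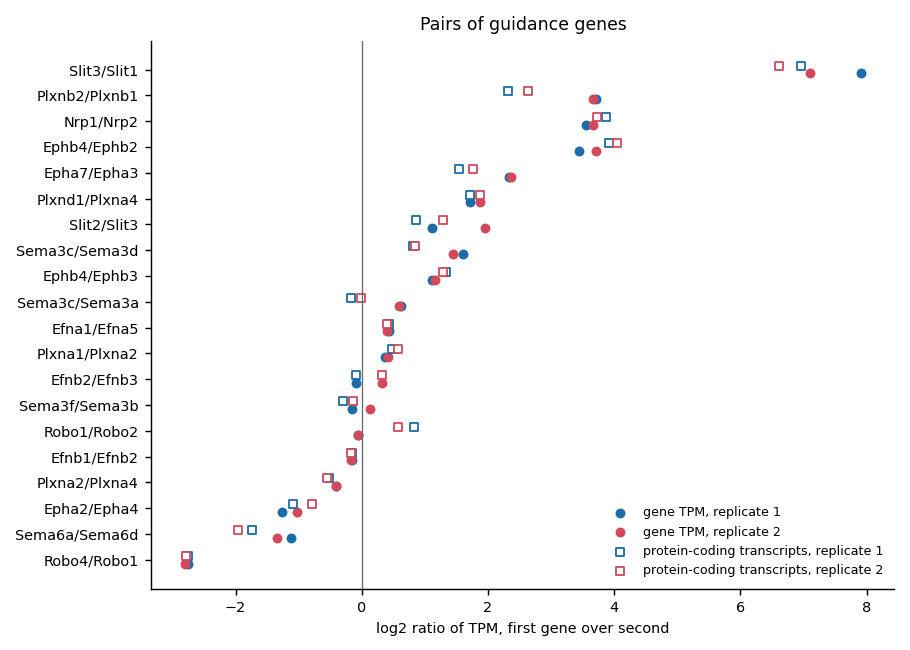
Log2 ratio of TPM of the first gene over the second in 20 pairs, in replicate 1 (blue) and replicate 2 (red), from gene TPM (filled circles) and from protein-coding transcripts (open squares). Slit3 over Slit1 has the highest ratio and Robo4 over Robo1 the lowest, and Sema3c/Sema3a moves from 0.61 to -0.092 on the mean.

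Of 50 related genes of the same pathways, 49 were matched (Ntn3 was not used here) and 38 were detected, with medians of 9.07 and 9.40 TPM. The adaptor Sdcbp, which binds the tail of ephrin-B proteins, was highest at 201.69 and 230.76 TPM, followed by Dpysl2 (144.49 and 172.66) and Dpysl3 (133.58 and 157.7), cytoskeletal proteins of the semaphorin response. Among co-receptors, Nrp1 had 47.18 and 54.54 TPM (50.9 ± 5.204) and Nrp2 4.02 and 4.31 (4.17 ± 0.205), a 12.2-fold difference without overlap. The endothelial receptor Robo4 had 1.67 and 1.78 TPM, 6.86-fold below Robo1. The netrin receptor Dcc stayed below 1 TPM, at 0.52 and 0.43.

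The libraries were then compared gene by gene on counts, which tests how alike these pools measured each gene and no condition. Of 51 guidance genes with a summed count of 20 or more, 2 differed at least 2-fold with an adjusted p below 0.05 (exact two-sided binomial test, Benjamini-Hochberg over 16621 genes), where 4.69% of all genes tested did. Both were higher in replicate 1, as were 3.32% of all genes, and 0 were higher in replicate 2, as were 1.37%. Ephb1 had 80 and 26.0 counts, 2.22-fold higher (adjusted p = 0.00080), and Sema6b 23 and 5 counts, 3.12-fold higher (adjusted p = 0.032). Both are below detection. Ephb1 shares 152 exon bases with a long non-coding RNA gene, Gm26846, on the opposite strand. With a summed count of 100 or more required, 1 of 45 guidance genes was called, Ephb1, where 1.45% of all genes were.

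At any fold, 22 of 51 passed the adjusted threshold, where 39.6% of all genes did. The test counts reads of 2 libraries and covers counting error alone, so deeply counted genes pass at small differences. Plxnb2 had a log2 ratio of replicate 1 to replicate 2 of -0.45 (adjusted p = 1.2e-43) and Slit2 of -0.24 (adjusted p = 6.9e-15). The median log2 ratio was -0.067 over the 51 guidance genes and -0.00045 over all genes tested, and the median size of the ratio was 0.18 against 0.19. The liver markers, all 4 of which were called higher in replicate 1, moved in the same direction as Ephb1 and Sema6b. Their part in that result was not tested. Of the companion genes, 1 of 47 tested was called, the adaptor gene Grb7 (98 and 20 counts), also higher in replicate 1.

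**Figure D5:**
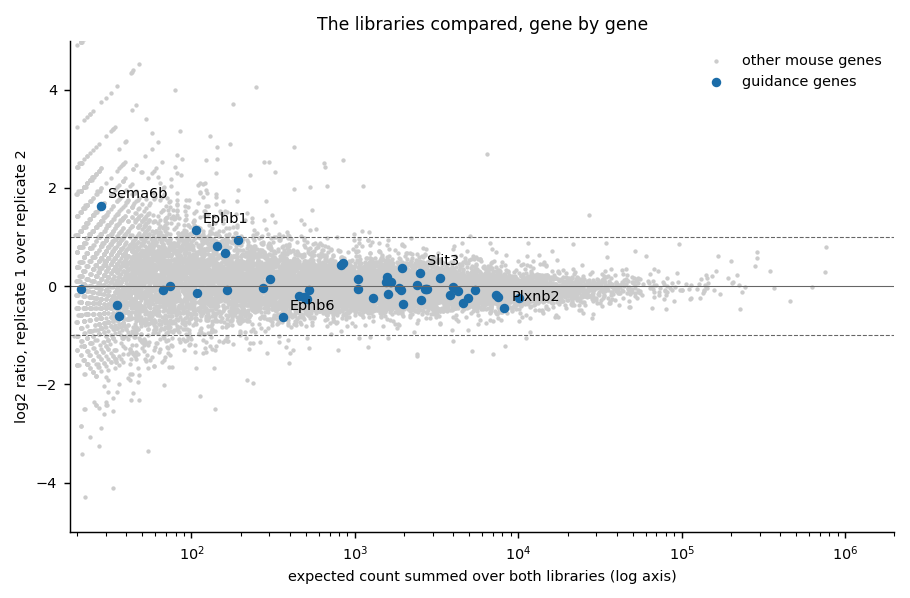
Log2 ratio of replicate 1 over replicate 2 against the summed expected count (log axis), for all mouse genes with a summed count of 20 or more (grey; 28 lie beyond the axis) and for 51 guidance genes (blue). Dashed lines mark a fold of 2. Ephb1 and Sema6b lie above the upper line, and no guidance gene lies below the lower one.

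Exons of 13 of the 57 genes overlap those of another annotated gene, 11 of them on the opposite strand. The overlaps range from 33 bases of Ephb4 with Zan to 970 bases of Plxna1 with the antisense gene Gm26811. The strand setting of the counting is not given in the sources used here, so reads in such stretches cannot be divided between the genes. Counts were whole numbers in both libraries for 50 of the 57 genes.

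The upstream sequence of these genes was examined for CG, the dinucleotide of CpG islands, which reads the same on both strands. RefSeq promoter windows on GRCm38.p6 were held for 50 of the 57 genes, and for 38 the annotated start lay within 100 bases of the start of the leading coding transcript. In the 250 bases before the start, the 35 detected genes among the 50 had a median of 17 CG and the 15 others 12. All 32851 windows of the table had a median of 6, but they are a set unlike that of the genes. Each gene gave the window nearest to the start of its leading coding transcript (for Sema4d, of Sema4d-204 and not Sema4d-201). The table was not reduced to a window per gene, nor to protein-coding genes. At least 10 CG were present in 28 of 35 and in 9 of 15, against 37.8% of all windows. Among the 38 genes within 100 bases, a limit not applied to the whole table, the counts were 24 of 27 and 5 of 11. Their medians were 18 and 8 CG. The windows of the other genes lay further from that start, up to 43008 bases for Sema6d. These counts describe the window and say nothing of the factors bound there. The 3 windows below were chosen after the values were seen, to show the range at a high and at low levels, and CG is in capitals. Efna5 (17.4 TPM) has 32 CG, Epha8 (0 and 16 counts) has 46, the highest of the 38, and Sema4a (0.59 and 0.68 TPM) has 2, the lowest.
Efna5, chr17:62881318-62881567, minus strand: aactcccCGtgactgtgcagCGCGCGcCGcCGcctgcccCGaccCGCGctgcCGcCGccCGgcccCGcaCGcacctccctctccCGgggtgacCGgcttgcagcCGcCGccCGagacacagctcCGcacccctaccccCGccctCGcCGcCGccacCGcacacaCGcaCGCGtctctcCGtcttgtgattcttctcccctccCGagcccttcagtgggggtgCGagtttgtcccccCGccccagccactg
Epha8, chr4:136956817-136957066, minus strand: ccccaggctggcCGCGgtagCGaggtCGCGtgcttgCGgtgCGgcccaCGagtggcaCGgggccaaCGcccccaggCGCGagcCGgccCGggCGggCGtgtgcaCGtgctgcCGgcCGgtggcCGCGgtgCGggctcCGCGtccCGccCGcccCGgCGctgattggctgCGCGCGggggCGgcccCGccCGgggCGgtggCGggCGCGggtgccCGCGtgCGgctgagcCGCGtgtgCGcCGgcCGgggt
Sema4a, chr3:88461183-88461432, minus strand: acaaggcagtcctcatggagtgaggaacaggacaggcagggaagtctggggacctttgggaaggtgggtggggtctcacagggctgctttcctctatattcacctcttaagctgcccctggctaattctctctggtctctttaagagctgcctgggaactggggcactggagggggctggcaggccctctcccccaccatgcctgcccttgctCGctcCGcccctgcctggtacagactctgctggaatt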

How the data were processed

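Total RNA of 2 libraries (1 group) was analysed from the deposited tables, made on mm10 with annotation M4 per the README texts. Per the file headers, the authors' tables hold expected counts (estimated reads per gene, not normalized), TPM, and each transcript's percent of its gene, with posterior means of each. The sources used here do not give the aligner, the quantifier or the strand setting. Symbols, transcript types and coordinates came from GENCODE M21 (GRCm38) by identifier, which matched 42462 of 43346 genes (98.0%). The members and gene lists were chosen with earlier results of these data known.

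Gene TPM was used as deposited, and coding TPM is its sum over transcripts typed as protein-coding. That scale was added after the data were seen. Expected counts were rounded and compared with a two-sided exact binomial test on TMM sizes (edgeR 4.0.16, R 4.3.3) with Benjamini-Hochberg adjustment. For folds, 0.5 was added to each count. The procedure was also run on simulated counts that had the same library sizes and counting error alone. That run checks the code and says nothing of the spread between real pools. Full values were given for the 3 highest and the lowest gene of each family, for genes called between the libraries and for the fixed pairs. The labels record separate biosamples, and the SD has no other basis. Alternatives were posterior means, other thresholds, scalings and filters, DESeq2 1.42.0 size factors, and each replicate left out. Python 3.11.15 with pandas 2.3.3 and scipy 1.17.1 was used. Protein sequences were not used here.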

Additional observations from a re-analysis of the deposited data

How the results depend on the processing

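The median level of the guidance genes was 5.005 TPM as the mean of both libraries and 5.545 with posterior mean TPM. It was 6.94 after rescaling to nuclear protein-coding genes, 6.06 over genes at 0.1 TPM or more and 4.355 in coding transcripts. The median of all protein-coding genes was not recomputed under these settings, so these values cannot be set against the one given above. The number detected stayed between 35 and 44 under the settings tried, with 39 in coding transcripts. The number called between the libraries was 2 of 51 under the other scalings, where 4.73% and 4.67% of all genes were called. With posterior mean counts it was also 2 of 51 (4.56%). Without a count filter it was 3 of 57 (Epha8 added, where 4.83% of all genes were called). It was 1 of 45 at a summed count of 100 or more (1.45%) and 6 of 51 at a fold of 1.5 (9.00%). The median log2 ratio between the libraries lay between -0.071 and -0.060. A leading transcript over 50% in both libraries was found in 42 of 57 genes, 34 with posterior means and 25 at a threshold of 70%. Only 1 transcript was listed for 12 of the 57, which fixes its share wherever the gene has counts. Of 100 alternative values of the 20 pairs, leaving out those from a single library, 44 lay within 1 SD, 54 moved further and 2 changed sign from a pair that was apart: Sema3c/Sema3a in coding transcripts (-0.092) and Efna1/Efna5 as a ratio of counts (-1.08), which ignores length. Leaving out a library leaves no comparison between libraries. No paired analysis was possible because there is 1 group. Depth limits the 6 genes with under 20 summed counts, which enter the library comparison only without the count filter.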
